A study of Equus caballus with 15 samples.

Results

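The Schwann cell and myelin genes PMP22, MBP, S100B, SOX10, CDH19, NGFR and PRX were followed across horse muscle, tendon and the myotendinous junction (MTJ), where muscle fibres attach to tendon. They were taken by symbol from the deposited count table, and all 7 of 7 were found among its 30297 genes. RNA had been sequenced from 15 libraries, 1 muscle, 1 MTJ and 1 tendon section from each of 5 horses, numbered 14, 16, 17, 18 and 20. The horses, 4 mares and 1 gelding aged 5 to 7 years, had been euthanized, and a 4 mm punch of the superficial digital flexor of the front limb was cut along the tendon plane into layers of about 200 µm. The MTJ layer also held muscle and tendon. Horses carried a training label of trained or sedentary, but that of horse 14 differed between its muscle library and its other libraries, so training was not compared.

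Schwann cells are the glia of peripheral nerve. Some wrap single large axons in compact myelin, which is held together by proteins such as MBP and PMP22, while others ensheathe bundles of thin axons without myelin. In muscle and tendon they lie along motor, sensory and autonomic nerve branches, whose position in the tissue is uneven. None of these genes belongs to Schwann cells alone: PMP22 is also used by fibroblasts and endothelium, S100B by cartilage and fat cells, SOX10 by melanocytes, NGFR by pericytes and fibroblasts, PRX by endothelium, and the MBP gene by lymphocytes.

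Library totals ran from 15304218 to 19295339 counts, and no 2 libraries held identical values. Levels are CPM, counts relative to a common library total, scaled with trimmed mean of M values (TMM) factors, which ran from 0.671 in muscle to 1.88 in tendon. Of the 7 genes, 6 passed edgeR's filter on low counts, as did 15343 genes in all, and PRX did not. The labelled tissues were checked against marker lists: all 10 fibre genes tested were higher in muscle than in tendon and all 10 tendon cell genes lower. SCX, a tendon transcription factor, failed the filter and was not higher in tendon. Its means were 0.211 CPM in tendon, 0.241 CPM in the MTJ and 0.267 CPM in muscle. By earlier results of these data, muscle RNA was most abundant in the tendon libraries of horses 14, 16 and 17, and summed fibre genes ran from 445 to 56488 CPM over the tendon libraries.

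PMP22 on chromosome 11 (EquCab3.0, as the table gives it, without start or end) encodes a membrane protein of compact myelin. It stood far above the other genes. In muscle it measured 73.3, 93.1, 75.3, 80.5 and 69.6 CPM in horses 14, 16, 17, 18 and 20. In the MTJ the same horses gave 76.4, 85.6, 102.8, 134.9 and 94.2 CPM, and in tendon 205.4, 215.1, 201.0, 328.1 and 266.1 CPM. Every tendon library lay above every muscle and MTJ library, and the muscle and MTJ ranges overlapped.

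MBP on chromosome 8 encodes myelin basic protein, which binds the inner faces of the myelin membrane together. Its muscle levels were 4.41, 17.2, 14.0, 3.53 and 4.59 CPM in horses 14, 16, 17, 18 and 20. In the MTJ they were 2.25, 4.33, 3.68, 11.4 and 3.85 CPM, and in tendon 2.27, 12.7, 2.84, 1.07 and 2.78 CPM. Horses 16 and 17 were high in muscle, horse 18 in the MTJ and horse 16 in tendon, and all 3 tissues overlapped.

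PRX on chromosome 10 encodes periaxin, a scaffold of myelinating Schwann cells. It was close to the limit of detection, with at most 33 counts in a library. Muscle averaged 0.627 ± 0.593 CPM, the MTJ 0.204 ± 0.211 and tendon 0.431 ± 0.546 (SD, n = 5 each). No count was seen in the MTJ of horse 14, which allows up to 0.218 CPM, nor in the tendon of horse 20, which allows up to 0.102 CPM; these limits take 3 counts per library and cover counting error only. The highest library was that of horse 16 in each tissue.

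SOX10 on chromosome 28 encodes the transcription factor that Schwann cells need at every stage. It measured 0.696, 1.60, 2.23, 0.515 and 0.312 CPM in muscle, 0.145, 0.881, 0.323, 1.21 and 0.540 CPM in the MTJ, and 1.06, 2.04, 2.40, 1.44 and 2.07 CPM in tendon, for horses 14, 16, 17, 18 and 20. Each horse had more in tendon than in its own muscle or MTJ, although the ranges overlapped. These levels rest on 2 to 65 counts per library.

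CDH19 on chromosome 8 encodes a cadherin of Schwann cell precursors and of Schwann cells without myelin. In muscle it stood at 0.309, 2.94, 0.998, 0.515 and 1.01 CPM in horses 14, 16, 17, 18 and 20. The MTJ gave 0.435, 2.86, 0.323, 11.4 and 0.675 CPM, and tendon 7.6, 10.7, 1.25, 1.25 and 10.8 CPM. Tendon was split, with horses 14, 16 and 20 high and horses 17 and 18 low, and the highest value of all was in the MTJ of horse 18.

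S100B on chromosome 26 encodes a calcium-binding protein used as a general Schwann cell marker. Its values in horses 14, 16, 17, 18 and 20 were 4.64, 8.66, 4.99, 0.221 and 1.01 CPM in muscle and 0.290, 1.76, 0.129, 6.24 and 0.338 CPM in the MTJ. In tendon they were 2.08, 9.69, 1.25, 0.219 and 3.42 CPM. Horse 18 was the lowest in muscle and tendon and the highest in the MTJ.

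NGFR on chromosome 11 encodes the low-affinity neurotrophin receptor p75, which marks immature and non-myelinating Schwann cells. It stood at 1.16, 1.51, 2.61, 0.147 and 0.234 CPM in muscle, in horses 14, 16, 17, 18 and 20. The MTJ held 0.653, 3.08, 0.840, 8.43 and 0.338 CPM and tendon 1.06, 4.70, 3.80, 0.470 and 2.03 CPM. As for S100B, horse 18 was lowest in muscle and tendon and highest in the MTJ.

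**Figure D1:**
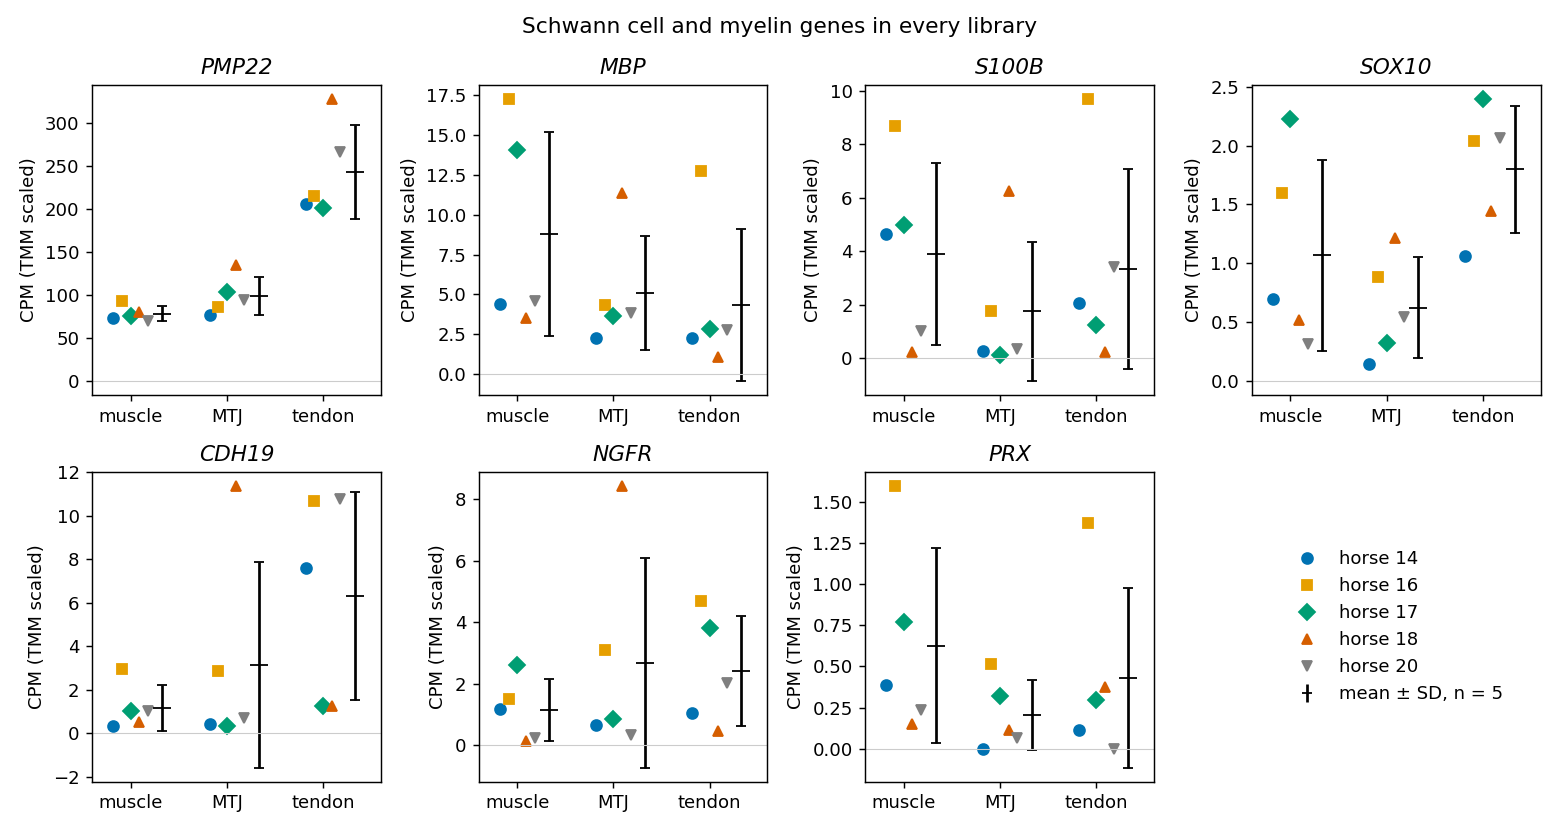
Levels in CPM (TMM scaled, linear axes that differ between panels) of each gene in the muscle, MTJ and tendon library of each of 5 horses, with the mean and SD beside the points. PMP22 in tendon lies above every other library, from 201.0 to 328.1 CPM, while the MTJ library of horse 18 is the top MTJ point for every gene other than PRX.

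Levels per kilobase of the table's gene length were compared between genes. PMP22 led in each tissue, at 37.2 ± 4.34 CPM per kilobase for muscle, 46.9 ± 10.7 for the MTJ and 115.4 ± 25.7 for tendon (SD, n = 5), with no overlap with the next gene. MBP came second in muscle at 3.27 ± 2.38 and in the MTJ at 1.90 ± 1.34, and S100B came second in tendon at 2.07 ± 2.33, followed by MBP at 1.61 ± 1.77. Below PMP22, every pair of neighbours in the order overlapped in every tissue. PRX was last throughout.

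Muscle and tendon sections were compared first, to see on which side of the junction these genes were higher. Of the 6 genes tested, 2, PMP22 and CDH19, were lower in muscle (edgeR quasi-likelihood test, horse as a block, Benjamini-Hochberg adjusted p under 0.05, which is what called means hereafter), and none was higher. Of all genes tested, 73.4% were called, 34.6% higher and 38.8% lower, so the members' share did not exceed the background. The median log2 change of the 6 genes was -1, beside -0.13 over all genes. In these bulk sections, fewer cells of a type and less RNA per cell cannot be told apart.

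The log2 change of PMP22 was -1.61 ± 0.14 (SE, adjusted p = 7.66e-07, edgeR), with all 5 horses lower in muscle. Markers of other cells that use PMP22 were read beside it. Lower in muscle were 6 of 6 fibroblast genes tested and 6 of 12 endothelial genes, beside 38.8% of all genes tested. The fibroblast gene DPP4, which failed the filter, leaned the other way, at means of 0.506 CPM in muscle and 0.120 CPM in tendon. Only 1 endothelial gene, FLT1, was called higher, beside 34.6% of all genes. Summed fibroblast genes ran from 215 to 371 CPM in muscle and from 1152 to 1900 in tendon, and summed endothelial genes from 456 to 690 and from 534 to 1158. The part of these cells in the PMP22 difference was not tested.

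CDH19 changed by -2.56 ± 0.96 (adjusted p = 0.0293, edgeR) and was lower in muscle in 5 of 5 horses. That call was fragile. With robust estimation in the same test the adjusted p was 0.0539, and it was 0.112 without horse 14, 0.0601 without horse 16 and 0.104 without horse 20. Leaving out tendon of horses 14, 16 and 17 gave 0.257. DESeq2 kept CDH19 and added MBP.

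MBP was the gene with the largest change towards muscle, at 1.15 ± 0.55 (adjusted p = 0.0768, edgeR), and was higher in muscle in 5 of 5 horses without being called. Its adjusted p was 0.0344 in DESeq2, 0.0446 without horse 16, 0.0162 without horse 18 and 0.00767 with only the 10 muscle and tendon libraries in the fit. Scaled to library totals without TMM factors its direction turned, to -0.06, as the median of all genes moved from -0.13 to -1.36; relative to that median MBP stood at 1.28 with TMM factors and 1.30 without. SOX10 had a change of -0.85 ± 0.48 (adjusted p = 0.128), NGFR one of -1.15 ± 0.89 (0.256) and S100B one of 0.39 ± 1.03 (0.747, edgeR). NGFR was also called with only the 10 libraries in the fit (adjusted p = 0.0417).

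MTJ sections were then set against muscle, to see whether the junction adds Schwann cell RNA. No gene of the 6 was called by edgeR, beside 6.62% of all genes tested (6.11% higher); 1, PMP22, had an unadjusted p under 0.05, and DESeq2 also called 0. PMP22 had a log2 change of 0.31 ± 0.14 (adjusted p = 0.234, edgeR), with 4 of 5 horses higher in the MTJ. It was called with only the 10 muscle and MTJ libraries in the fit (adjusted p = 0.0475) and with library totals in place of TMM factors (0.0435, edgeR), where the median of all genes moved to 0.22.

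For the other 5 genes no change between MTJ and muscle was called, and the errors were large. CDH19 stood at 1.00 ± 1.05, NGFR at 1.03 ± 0.99, MBP at -0.54 ± 0.58, S100B at -1.34 ± 1.27 and SOX10 at -0.70 ± 0.54. The horses disagreed: S100B and MBP were lower in the MTJ in 4 of 5 horses and higher in horse 18. PRX, fitted only when the filter was dropped, had a change of -1.67 ± 0.73 (adjusted p = 0.332, edgeR).

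Against tendon, 2 of the 6 genes, PMP22 and SOX10, were lower in the MTJ, where 67.3% of all genes tested were called and 34.5% were lower. PMP22 changed by -1.30 ± 0.14 (adjusted p = 6.48e-06, edgeR) and was lower in 5 of 5 horses. SOX10 changed by -1.55 ± 0.50 (adjusted p = 0.0156, edgeR), again lower in 5 of 5. Without horse 14 the adjusted p of SOX10 was 0.0554, and with tendon of horses 14, 16 and 17 left out it was 0.0695. CDH19 stood at -1.56 ± 1.00 (adjusted p = 0.183, edgeR; DESeq2 called it), S100B at -0.95 ± 1.25 (0.517), MBP at 0.61 ± 0.59 (0.374) and NGFR at -0.12 ± 0.92 (0.913).

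**Figure D2:**
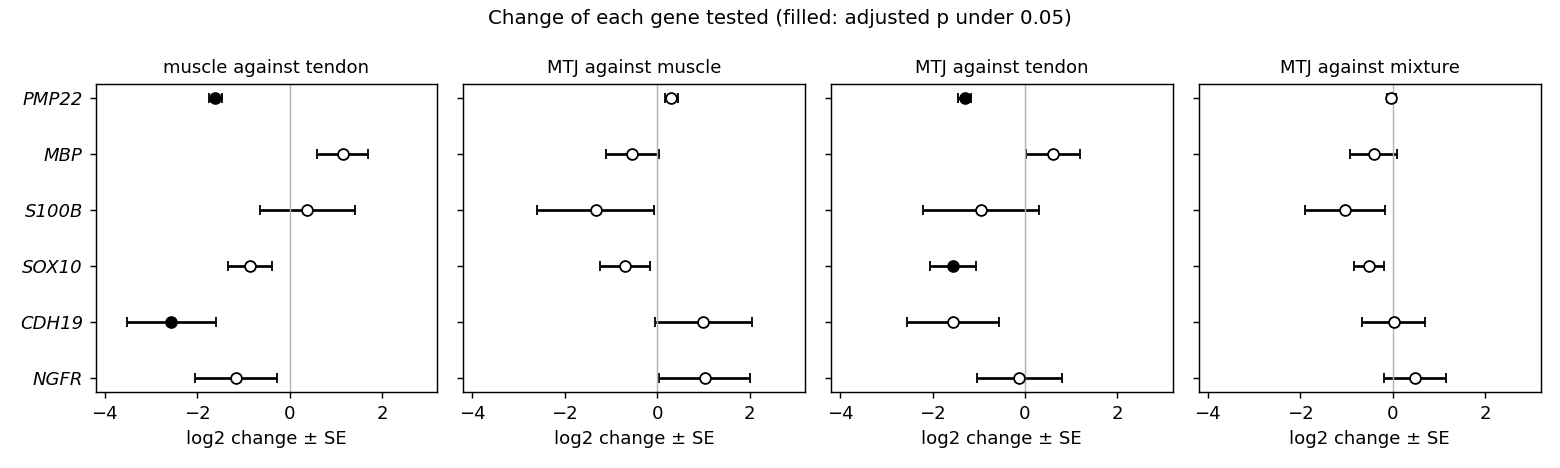
Log2 change with its standard error for the 6 genes tested in each of 4 comparisons, from edgeR fits on 15 libraries or, for the mixture, limma on 5 ratios; filled points have an adjusted p under 0.05. Filled points are PMP22 and CDH19 in muscle against tendon and PMP22 and SOX10 in MTJ against tendon.

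An MTJ section holds muscle and tendon, so each was also set against a mixture of the same horse's own muscle and tendon. The shares came from the authors' deposited reference genes and averaged 77.6 ± 5.66% muscle and 15.9 ± 5.16% tendon (SD, n = 5). None of the 6 genes differed from the mixture by limma, at an adjusted or an unadjusted p under 0.05, beside 1.01% of all genes called, 0.795% higher and 0.215% lower. PMP22 had the smallest error, at a log2 ratio of -0.03 ± 0.10 (adjusted p = 0.933, limma, 0.5 CPM added). The authors' deposited table of MTJ changes lists 1 of the 7 genes, PMP22, with a log2 change of -0.03 and a false discovery rate of 0.786.

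The mean ratios of the remaining genes hid a spread between horses. CDH19 averaged 0.02 ± 0.68, but horse 18 stood at 3.48 and the other 4 horses between -1.15 and -0.35. S100B averaged -1.02 ± 0.87, with horse 18 at 3.29 and the others between -2.86 and -1.04. Horse 18 was likewise highest for NGFR at 3.72 and for MBP at 1.93, where the next highest horses stood at 0.61 and -0.05.

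**Figure D3:**
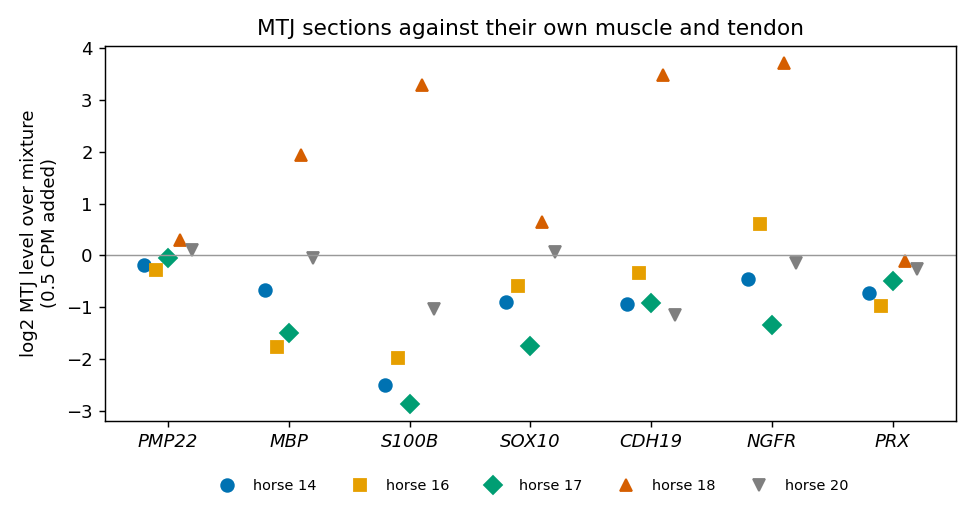
Log2 ratio of each horse's MTJ level to the level its own muscle and tendon would give (0.5 CPM added to both), 1 point per horse, with the line at 0 marking equality. Horse 18 lies above 0 for every gene other than PRX and reaches 3.72 for NGFR, while horses 14 and 17 lie below 0 for every gene.

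The MTJ library of horse 18 thus weighed heavily on several values. It was the highest MTJ library for 6 of the 7 genes, and held 71.2% of the summed MTJ level of S100B, 72.6% of that of CDH19 and 63.2% of that of NGFR. The muscle library of the same horse was the lowest for 4 genes and its tendon library for 3. Over all genes tested, it was the highest MTJ library for 21.1%.

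Without that library, S100B was lower in the MTJ than in muscle by -3.20 ± 0.58 on the log2 scale (adjusted p = 0.00976, edgeR). That change rests on 4, 24, 2 and 5 counts in the MTJ of horses 14, 16, 17 and 20. S100B was the only one of the 6 genes called, beside 4.19% of all genes, 0.216% lower. CDH19 then stood at -0.58 ± 0.60 and NGFR at -0.28 ± 0.52, both with the opposite sign to before. Against tendon, 5 of 6 genes were called lower without it: S100B at -2.81 ± 0.57, CDH19 at -2.92 ± 0.55 and NGFR at -1.43 ± 0.49 joined PMP22 and SOX10 (adjusted p = 0.00126, 0.000813 and 0.0232 for the 3, edgeR). Of all genes in that fit, 63.2% were called and 32.3% were lower. MBP stood at -0.15 ± 0.36 and was not called. This library was left out because its values had been seen, so these calls describe how far 1 library weighs and are no independent test.

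**Figure D4:**
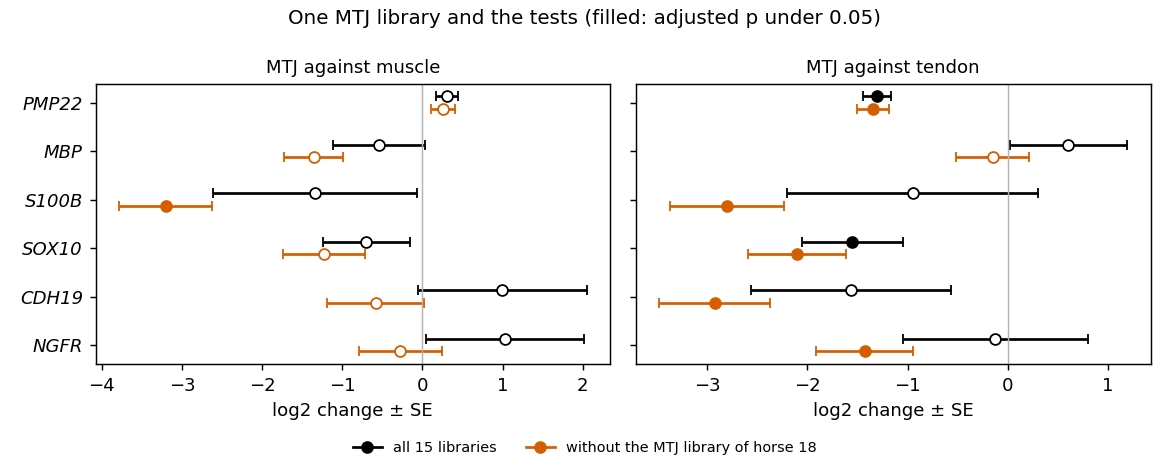
Log2 change with its standard error for the 6 genes tested, with all 15 libraries (black) and without the MTJ library of horse 18 (orange), against muscle and against tendon; filled points have an adjusted p under 0.05. Without it S100B moves to -3.20 against muscle, and S100B, CDH19 and NGFR become filled against tendon.

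Other genes of the nerve showed how far this pattern reached. Of 20 further genes of myelinating Schwann cells, 9 were tested. Horse 18 was the highest MTJ library for 5 of the 9, beside 21.1% of all genes, and horse 16 the highest tendon library for 9 of 9, beside 27%. The tendon library of horse 16 also held the highest summed fibre genes, and the part of that in its levels was not tested. Horse 16 also led in muscle for 5 of the 7 genes, beside 18.4% of all genes tested, and in tendon for 4.

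Of the 9 further myelinating genes, 2 were lower in muscle than in tendon and none higher, beside 38.8% and 34.6% of all genes tested. The 2 were ADGRG6, an adhesion receptor needed for myelination, by -2.41 ± 0.25 on the log2 scale, and PLLP, plasmolipin, by -1.86 ± 0.31. Genes not called leaned both ways. Among them, DRP2, NCMAP and CNP leaned to muscle (log2 change of 1.10, 0.61 and 0.19) and CLDN19 and EGR2 to tendon (-0.85 and -0.82). ADGRG6 was the 1 gene called between MTJ and muscle, beside 6.62% of all genes tested, and was higher by 1.05 ± 0.26 (adjusted p = 0.0304, edgeR). Its adjusted p was 0.156 with no replicate block, 0.114, 0.0971, 0.0749 and 0.128 without horses 14, 17, 18 and 20, and 0.124 without the MTJ library of horse 18. CLDN19, a claudin of Schwann cells, ADGRG6 and PLLP were lower in the MTJ than in tendon, beside 34.5% of all genes tested. CLDN19 changed by -2.83 ± 0.79, which rests on 11 counts in all over the MTJ libraries, with at most 4 in any of them. PLLP was not called without horse 16 (adjusted p = 0.0744, edgeR), nor without tendon of horses 14, 16 and 17 (0.395). None was called against the mixture by limma, where 2 had an unadjusted p under 0.05.

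Of 15 genes of non-myelinating and precursor Schwann cells, 9 were tested. In muscle 3 were lower than in tendon, beside 38.8% of all genes tested. Among the 3 were ERBB2, the partner of the neuregulin receptor, by -1.88 ± 0.26, and ITGB8, an integrin chain, by -1.58 ± 0.55. ITGB8 was not called without horse 14 or 17 (adjusted p = 0.0684 and 0.0613, edgeR), nor without tendon of horses 14, 16 and 17 (0.261). The count of genes called ran from 1 without horse 14 to 5 without horse 18. None was called between MTJ and muscle by edgeR, although 1 had an unadjusted p under 0.05 and DESeq2 called 1. NCAM1, which muscle fibres also use, exceeded both tendon, by 2.07 ± 0.78, and the mixture, by 2.71 ± 0.30 (adjusted p = 0.0336, edgeR, and 0.0178, limma). Against tendon its adjusted p was 0.0590 with no replicate block, 0.0659 with robust estimation, and 0.0747, 0.110 and 0.0653 without horses 14, 17 and 20; against the mixture it was 0.0918, 0.0527 and 0.0564 without horses 14, 17 and 18, and 0.0857 with no filter. ERBB2 was the other gene called between MTJ and tendon, lower by -1.72 ± 0.26, where 67.3% of all genes tested were called. Without the MTJ library of horse 18, 7 of the 9 were called there, beside 63.2% of all genes in that fit. Among the 7, NCAM1 was higher and ERBB2 lower. FOXD3 and SOX2, regulators of the precursor state, were at or near 0 everywhere, with means of at most 0.0289 CPM.

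Of 7 axonal genes tested, 0 were highest in the MTJ library of horse 18 and 4 in the tendon library of horse 16, beside 21.1% and 27% of all genes. The difference from the Schwann cell genes was not tested. The list was mixed: 1 was higher and 4 lower in muscle than in tendon, beside 34.6% and 38.8% of all genes. Against tendon 1 was higher and 2 lower in the MTJ, beside 32.8% and 34.5%. In the MTJ 2 were higher than in muscle, beside 6.11%, and 3 higher than the mixture, beside 0.795%. NEFM, the medium neurofilament chain, was higher in the MTJ than in muscle by 6.52 ± 0.88 and than the mixture by 3.80 ± 0.38 (adjusted p = 0.0169, limma; 0.0822 without horse 14, 0.0547 without horse 18, 0.0665 without horse 20 and 0.0816 with no filter). NEFL, the light chain, was higher in the MTJ than in muscle by 2.44 ± 0.40 but lower than in tendon by -2.43 ± 0.32, and stood at 0.02 ± 0.26 against the mixture (adjusted p = 0.979, limma). CHAT, the enzyme that makes acetylcholine in motor axons, was at 0 in all libraries. Whether axons were present was not tested by the RNA of these genes. Of 6 sheath genes of the perineurium tested, 4 were highest in the MTJ of horse 18, beside 21.1% of all genes. Lower than in tendon were 4 in muscle and 5 in the MTJ, beside 38.8% and 34.5% of all genes. ITGB4, an integrin chain, was among both, by -3.28 ± 0.51 and -2.17 ± 0.48.

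**Figure D5:**
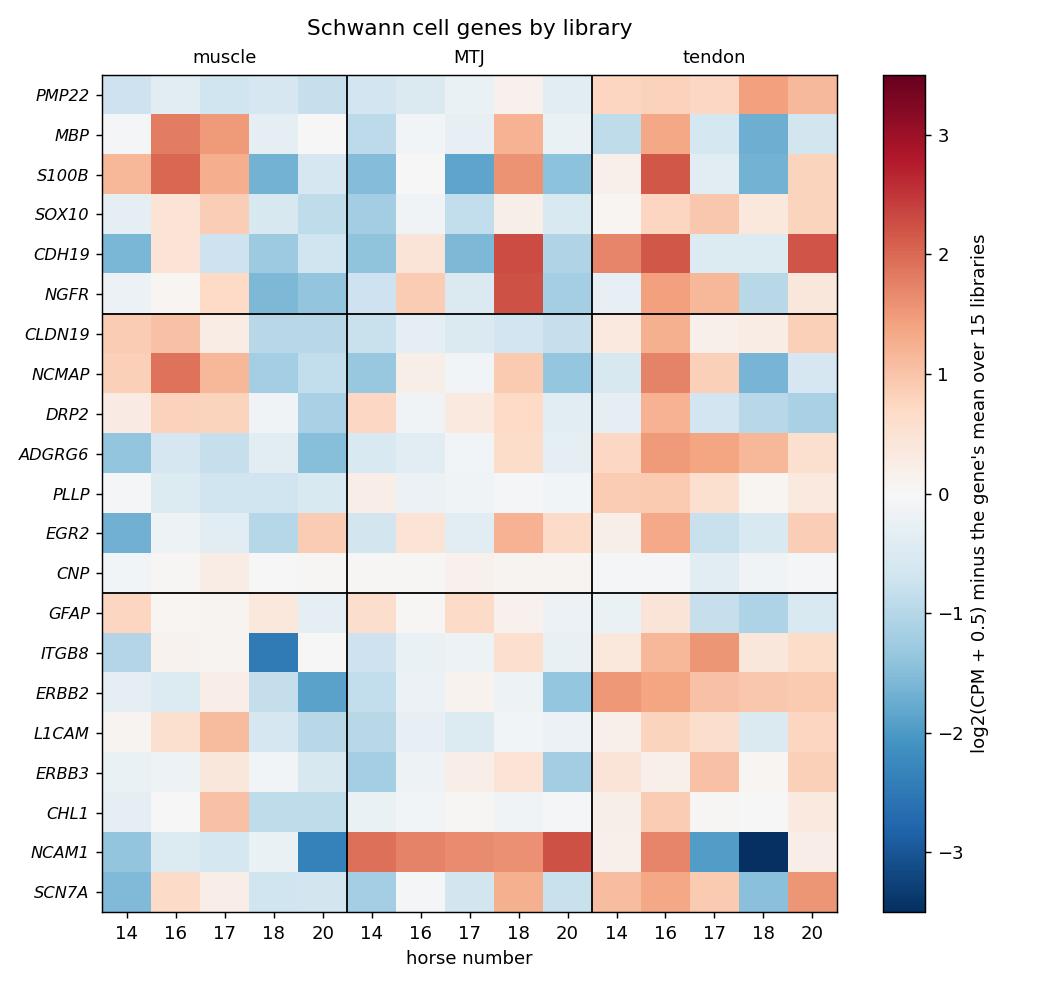
Log2(CPM + 0.5) of the 6 genes tested (top), 7 further genes of myelinating Schwann cells (middle) and 8 of other Schwann cells (bottom), each minus its mean over the 15 libraries, in every library by tissue and horse number. The columns of horse 16 in tendon and horse 18 in the MTJ are red for most genes in the upper blocks, and NCAM1 is red in all 5 MTJ columns.

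Ligands and receptors that act on Schwann cells were read beside NGFR. Of 12 genes, 8 were tested, with RET present as a pair of rows, which made 9 rows. In muscle 1 row was higher and 5 were lower than in tendon, beside 34.6% and 38.8% of all genes tested. Against tendon 1 was higher and 4 were lower in the MTJ, beside 32.8% and 34.5%. Between MTJ and muscle 1 was higher, beside 6.11%. NRG1, the neuregulin that axons use to drive Schwann cell growth, was lower in muscle than in tendon by -4.48 ± 0.53. It was lower in the MTJ than in tendon by -3.40 ± 0.46. NRG1 was near the limit of detection, with 7 counts in all over the muscle libraries and 18 over those of the MTJ. NTRK2, the receptor of BDNF, was lower in muscle than in tendon by -3.61 ± 0.24 and higher in the MTJ than in muscle by 1.37 ± 0.23. BDNF itself, a neurotrophin that binds NGFR, went the other way, higher in muscle than in tendon by 4.28 ± 0.66. However, it failed the filter without horse 18 and had 6 counts in all over the tendon libraries.

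Other cells that use these genes were checked in the same libraries. Of 3 melanocyte genes tested, 2, TYRP1 and MITF, were higher in muscle and in the MTJ than in tendon. In these comparisons 34.6% and 32.8% of all genes were called higher. PMEL was called in neither. MLANA and DCT, which failed the filter, leaned the other way, at means of 0.077 and 0.081 CPM in muscle and 0.462 and 0.472 CPM in tendon. TYRP1, a pigment enzyme, averaged 8.25 CPM in muscle, 5.85 for the MTJ and 0.751 for tendon (log2 change of 3.66 ± 0.65 between muscle and tendon), highest in horse 16 in each tissue, while TYR, the first enzyme of pigment synthesis, was at 0 in muscle and the MTJ and averaged 0.0203 CPM in tendon. Of the cartilage cell markers, COL2A1 averaged at most 0.260 CPM. Of those tested, 4 of 4, ACAN and HAPLN1 among them, were higher in tendon than in muscle, beside 38.8% of all genes. In the MTJ of horse 18, 0 of the 4 were highest, beside 21.1% of all genes. Of 7 adipocyte genes tested, 3 were higher in muscle than in tendon, beside 34.6% of all genes. Among the 3 was FABP4, a fatty acid binding protein, at a mean of 78.4 CPM in muscle. Without being called, CIDEA, ADIPOQ and CIDEC leaned to tendon (log2 change of -1.50, -0.80 and -0.31) and LIPE to muscle (0.43). PLIN1, which failed the filter, averaged 0.061 CPM in muscle and 0.461 CPM in tendon. LEP, a fat cell hormone, was at 0 in all libraries. CIDEA, a lipid droplet protein, was higher in the MTJ than in muscle, by 3.37 ± 0.75, than in tendon and than the mixture, but was not called in any of the 3 without horse 16 or without horse 17 (adjusted p from 0.0503 to 0.0962). ADIPOQ, which encodes adiponectin, was the 1 adipocyte gene highest in the MTJ of horse 18, at 8.89 CPM beside an MTJ mean of 3.56 ± 3.65. Pericyte and smooth muscle genes were highest there in 4 of 10, and endothelial genes in 3 of 12, beside 21.1% of all genes tested. Lymphocyte genes, summed, ran from 13.6 to 16.0 CPM in the MTJ, highest in horse 14. The part of these cells in the levels of the 7 genes was not tested.

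Genes with the most similar profile were sought by the root mean square difference between centred log2(CPM + 0.5) values over the 15 libraries, among 11683 genes. CDH19 was nearest to SCN7A, a sodium channel gene on the list of non-myelinating Schwann cells, at 0.73, then COL28A1 at 0.90 and SRPX at 0.93. S100B was nearest to CLDN1 of the perineurium list at 0.60, NCMAP of the myelinating list at 0.74 and APOD at 0.79. NGFR was nearest to the smooth muscle genes MYL9 at 0.58 and TAGLN at 0.58, then SFRP1 at 0.62.

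MBP was nearest to OR51E1 at 0.56, DHRS11 at 0.60 and PTN at 0.61. PMP22 had the closest neighbours, PRRC1 at 0.16, NEK1 at 0.17 and WSB1 at 0.17, and SOX10 was nearest to NRARP at 0.30, GRAMD1B at 0.32 and ANKRD50 at 0.33. PRX was nearest to SCAF4, GFER and RNF126, at 0.34, 0.35 and 0.37. No member was among the 3 nearest genes of another. The closest pair of members was PMP22 and SOX10, at 0.63, and the farthest S100B and PMP22, at 1.51. These differences are not scaled to a gene's own SD over the libraries, which was 0.76 for PMP22, 0.71 for SOX10 and 1.45 for CDH19. A small difference can thus reflect little spread rather than likeness.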

How the data were processed

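The deposited table held raw read counts per gene for 15 libraries (15304218 to 19295339 in total), per the file headers. The submitters' processing notes name EquCab3.0 and DESeq2 1.26.0; the sources used here name no aligner or counter. RNA was enriched by oligo dT or depletion of ribosomal RNA, per the labels' protocols. The authors deposited per-horse log2 changes of the MTJ against a predicted value with adjusted p-values, and reference genes with log2 changes and p-values; 217 of 219 muscle and 322 of 322 tendon reference genes matched the table.

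The counts were filtered (filterByExpr by tissue, 14954 genes removed), scaled by TMM and tested over all 15 libraries with edgeR 4.0.16 in R 4.3.3 (glmQLFit and glmQLFTest with default settings, tissue and horse as terms, Benjamini-Hochberg over 15343 genes, threshold 0.05). MTJ levels were set against each horse's mixture, with shares taken as median ratios over reference genes, by limma 3.58.1 on log2 values with 0.5 CPM added. DESeq2 1.42.0 was an alternative. Horse numbers mark animals: deviations of same-horse libraries correlated at 0.150 to 0.589 over 15 pairs, and those of other horses at -0.330 to 0.160.

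The genes and lists were chosen with earlier results of these data known. After values of the 7 genes had been seen, 6 settings of the edgeR fit were tried to match earlier totals of these data; robust estimation matched them. It was kept as an alternative and the default fit, which had been run first, as the result, because the design named no robust estimation. The other members of each list were named where called, up to 4 by size of change. The scripts were tested on simulated data. No sequences are shown, and some genes of the lists are counted but not reported by name here. The gene length behind levels per kilobase is the table's own.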

Additional observations from a re-analysis of the deposited data

Results flagged for a closer look

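Each group of 5 libraries was examined for a highest or lowest value standing apart from the rest, by the gap to its neighbour over the group's range (Dixon's critical value 0.71). Of 28 groups, 7 were picked out, where chance picks out about 1 in 20 for independent and normally distributed values. These groups share the same 15 libraries and hold skewed levels, so the count is no measure of an excess.

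Of the 7 values, 4 came from the MTJ of horse 18. They were MBP at 11.4 CPM, where the next library stood at 4.33, S100B at 6.24 beside 1.76, CDH19 at 11.4 beside 2.86, and the log2 ratio of CDH19 to the mixture at 3.48 beside -0.35. The first and the third share a value because both genes had 197 counts.

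The other 3 came from horse 16. MBP in its tendon stood at 12.7 CPM with the next library at 2.84, PRX in its tendon at 1.37 beside 0.376, and CDH19 in its muscle at 2.94 beside 1.01.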

How the results depend on the processing

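Of 299 values of the 6 genes under other settings, 252 kept direction and side of the threshold, 21 reversed (0 of them called), 19 became called and 7 lost the call. Between muscle and tendon, 2 genes were called; 4 were with only the 10 libraries of both tissues, 4 with library totals, and 1 with robust estimation or without the tendon libraries of horses 14, 16 and 17. Leaving out each horse gave 1 to 3, and S100B from -0.14 to 0.94. With library totals MBP reversed to -0.063 and S100B to -0.81.

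Between MTJ and muscle, 0 genes were called; 1 was with only the 10 libraries and with library totals, and 0 to 1 without each horse. All genes called numbered 1015, and 667 with no replicate block, 2860 with only the 10 libraries, 1641 without those tendon libraries, 2366 with library totals and 581 to 739 without each horse (660 without the MTJ library of horse 18). Leaving out libraries, that MTJ library included, moved CDH19 from -0.58 to 1.51 and NGFR from -0.30 to 1.79.

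Against tendon, 2 genes were called, 1 to 5 without each horse and 1 without those tendon libraries. NGFR reversed to 0.16 with no replicate block and to 0.31 without those tendon libraries, and ran from -1.43 to 0.47 as libraries were left out. MBP reversed to -0.38 with library totals and ran from -0.23 to 1.19. Dropping the block changed no call of the 6 genes.

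Against the mixture 0 genes were called in any setting run. All genes called numbered 155, and 16 with no filter, 75 with 0.1 CPM added, 367 with 2 CPM added and 6 to 83 without each horse. PMP22 ran from -0.10 to 0.038 without each horse, NGFR from -0.33 to 0.93 and CDH19 from -0.84 to 0.32; CDH19 was -0.13 with 0.1 CPM added. The cause of these changes was not tested. Robust estimation, library totals and the removal of tendon libraries or of the MTJ library of horse 18 were chosen after seeing the data. Depth limits PRX and SOX10 most, at 0 to 33 and 2 to 65 counts per library. S100B and NGFR also fell to 2 counts in their lowest libraries.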

Other observations

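The ratio of CDH19, of Schwann cells without myelin, to MBP, of myelin, differed between tissues. This ratio was chosen after its values were seen and was not tested. It takes 1 gene of each kind. The median log2 change between muscle and tendon was -0.82 over the 9 further myelinating genes tested and -1.07 over the 9 of non-myelinating and precursor cells. CDH19 rested on 4 to 35 counts per library in muscle. CDH19 over MBP in CPM ranged from 0.0702 to 0.220 in muscle and from 0.442 to 3.88 in tendon, with no overlap between the 2 tissues. The MTJ spanned 0.0877 to 1, with its top value in horse 18.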
